A study of Mus musculus with 9 samples.

Results

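The genes of the translation initiation factors were followed in mouse splenic CD4+ T cells that were pre-treated with Compound 10 or its vehicle DMSO and then stimulated or left alone. Members were all GENCODE M21 protein_coding genes whose symbol begins with Eif and a digit from 1 to 6, leaving out the eIF2 alpha kinases (Eif2ak). The rule found 51 of the 45321 genes with transcripts in the tables. It covers the subunits of the initiation complexes, their regulators and close relatives, spread over 19 chromosomes.

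Initiation begins when eIF2 brings the initiator tRNA to the small ribosomal subunit, where eIF1, eIF1A and the large eIF3 complex prepare it for scanning. The cap-binding protein eIF4E, the scaffold eIF4G and the helicase eIF4A recruit that particle to the capped end of an mRNA. eIF5 and eIF5B then allow the start codon to be locked in and the large subunit to join, and eIF2B recharges eIF2 for another round. Resting T cells translate little, and activation is known to raise their protein synthesis sharply.

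All 9 libraries came from C57BL/6 mice and from cells purified untouched, that is, without antibody on the CD4+ cells themselves. Cells stood for 1 h with 12.5 µM Compound 10, which the series describes as a chemical inhibitor of NFAT:AP-1, or with DMSO. Stimulation was 10 nM PMA with 1 µM ionomycin, drugs that activate protein kinase C and raise calcium in place of a T cell receptor signal, and lasted 2 h. The groups were stimulated Compound 10 (n = 3 libraries), stimulated DMSO (n = 2), unstimulated Compound 10 (n = 2) and unstimulated DMSO (n = 2). Whether the libraries of a group stem from different mice or cultures is not in the labels. The p-values therefore reflect only how far these libraries differ, which may be technical.

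Libraries held 10669821 to 21852830 estimated counts. Ribosomal RNA took 9.08% to 33.2% of them, with the highest share in unstimulated DMSO library 2 and, among stimulated libraries, 19.3% in DMSO library 2. The 6 T cell markers listed (Cd3e, Cd3g, Cd4, Trac, Cd5 and Lck) were all detected, and their summed level was 1827 to 1866 CPM, counts scaled to a common library size, in stimulated Compound 10 libraries and 1234 to 1693 CPM in stimulated DMSO libraries. The sums were 1007 to 1153 CPM in unstimulated Compound 10 libraries and 573 to 606 CPM in unstimulated DMSO libraries. Cd8a stayed between 0 and 4 estimated counts in every library. The summed level of the natural killer cell markers Ncr1 and Klrb1c was 3.52 to 4.89 CPM in stimulated Compound 10 libraries and 0.261 to 0.839 CPM in stimulated DMSO libraries, and 1.95 to 2.55 CPM in unstimulated Compound 10 against 0.323 to 1.08 CPM in unstimulated DMSO libraries. That difference lay in Klrb1c, with 46, 52 and 50 estimated counts in stimulated Compound 10 and 4 and 6 in stimulated DMSO libraries. Ncr1, too low to be tested, had 5, 2 and 6 against 1 and 8. With Compound 10 in stimulated cells, 5 of the 6 T cell markers (all but Trac) and Klrb1c were higher by edgeR. The part of these shifts in the results below was not tested. In bulk samples, fewer cells of a type and less RNA per cell cannot be told apart.

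Promoters of 5 members are shown, since they are the cap-binding gene (Eif4e), the most abundant helicase and start-codon factors (Eif4a1 and Eif1), and, for Compound 10 in stimulated cells, the lower member with the smallest p (Eif3c) and the more abundant of the higher ones (Eif5). The sequences come from RefSeq, build GRCm38.p6, and run 5′ to 3′ on the strand of the gene over the 250 bases before a RefSeq start of that gene. They lie at chr3:138527018-138527267 on the plus strand for Eif4e, chr11:69672424-69672673 on the minus strand for Eif4a1 and chr11:100319699-100319948 on the plus strand for Eif1. Eif3c is at chr7:126566367-126566616 on the minus strand and Eif5 at chr12:111537851-111538100 on the plus strand. Capitals mark matches, on either strand, to the E-box read by Myc and its relatives (CACGTG), to an AP-1 site (TGANTCA) or to the GGAAA core that NFAT proteins and many others bind. No matches overlapped.
Eif4e: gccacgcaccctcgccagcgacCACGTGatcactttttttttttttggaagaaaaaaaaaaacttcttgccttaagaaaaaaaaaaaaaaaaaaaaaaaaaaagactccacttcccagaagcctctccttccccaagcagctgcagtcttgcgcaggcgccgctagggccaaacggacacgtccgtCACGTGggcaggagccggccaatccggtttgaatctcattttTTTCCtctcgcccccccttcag
Eif4a1: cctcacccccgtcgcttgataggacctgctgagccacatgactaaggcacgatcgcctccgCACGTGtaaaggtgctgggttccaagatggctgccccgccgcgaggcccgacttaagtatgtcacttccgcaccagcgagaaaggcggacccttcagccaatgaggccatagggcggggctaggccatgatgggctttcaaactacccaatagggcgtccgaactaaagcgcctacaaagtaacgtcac
Eif1: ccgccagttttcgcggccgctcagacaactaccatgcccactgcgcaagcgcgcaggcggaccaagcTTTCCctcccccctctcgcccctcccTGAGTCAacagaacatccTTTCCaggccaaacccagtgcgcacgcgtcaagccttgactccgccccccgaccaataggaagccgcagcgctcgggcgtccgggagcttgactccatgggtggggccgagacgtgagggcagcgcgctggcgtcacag
Eif3c: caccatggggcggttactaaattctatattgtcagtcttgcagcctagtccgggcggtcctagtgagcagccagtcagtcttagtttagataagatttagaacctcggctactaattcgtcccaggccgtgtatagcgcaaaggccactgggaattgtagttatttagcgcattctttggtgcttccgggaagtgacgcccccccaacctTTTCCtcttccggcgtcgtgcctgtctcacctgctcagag
Eif5: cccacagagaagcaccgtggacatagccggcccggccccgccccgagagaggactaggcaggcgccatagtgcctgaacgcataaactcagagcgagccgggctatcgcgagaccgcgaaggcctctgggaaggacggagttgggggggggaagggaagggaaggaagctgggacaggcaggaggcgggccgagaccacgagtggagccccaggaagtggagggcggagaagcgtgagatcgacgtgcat
The Eif4e stretch holds 2 E-boxes, at -228 and -64 from the start shown, and a core match at -22, while the other Eif4e start in RefSeq has none of the 3. Of the Eif4e starts, the one with the most matches was picked for display. Its stretch lies inside the GENCODE gene, which begins at chr3:138526179. Eif4a1 has an E-box at -189, Eif1 an AP-1 match at -157 between core matches at -183 and -139, Eif3c a core match at -40, and Eif5 none. RefSeq windows of 300 bases, which add 50 bases after the start, were found for 39 of the 51 members, the others being Eif1a, Eif2b3, Eif3e, Eif3h, Eif3i, Eif3j2, Eif4e1b, Eif4e3, Eif4ebp1, Eif4ebp3, Eif4g2 and Eif6. An E-box was present for 10 of these 39 members (25.6%), against 8.09% of 27025 genes with a window. Those genes were counted whether or not they were expressed here, and a background of expressed genes alone was not counted. AP-1 matches were present for 4 members (10.3%, against 8.97% of genes) and GGAAA for 19 members (48.7%, against 64.4%). The E-box holders were Eif1b, Eif3a, Eif3f, Eif3k, Eif4a1, Eif4e, Eif4g1, Eif4h, Eif5a and Eif5a2. A match describes letters in a window and is not a bound site.

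Levels differed widely between members. On the TPM scale, transcript abundance corrected for length, Eif1 led with 6407, 9618 and 6586 TPM in stimulated Compound 10 libraries and 6985 and 5112 TPM in stimulated DMSO libraries. Eif4a1 averaged 1273 TPM in stimulated Compound 10 and 1462 TPM in stimulated DMSO, and Eif5a 831 and 1244 TPM in the same groups. These 3 with Eif5 and Eif4g2 supplied 52.2% to 83.95% of the summed TPM of all members, depending on the library. Eif4e, often described as limiting for cap-dependent translation, averaged 119 TPM in stimulated Compound 10 and 209 TPM in stimulated DMSO, 79.4 TPM in unstimulated Compound 10 and 89.4 TPM in unstimulated DMSO. At the low end, Eif4ebp3, a repressor of eIF4E, had 0 to 3 estimated counts and Eif2s3y, the Y-linked copy of the eIF2 gamma gene, had 0 to 8, all on a retained-intron transcript. Both failed the filter on low counts, and the other 49 members were tested among 14011 genes.

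Stimulation without the compound raised many initiation factor mRNAs within 2 h. Of the 49 members, 19 were higher and 2 lower in stimulated than in unstimulated DMSO libraries by edgeR's quasi-likelihood test at a Benjamini-Hochberg adjusted p under 0.05, where 28.1% of all tested genes passed (14.4% higher, 13.8% lower). The median log2 fold change was 0.47 over the members and -0.05 over all tested genes. Scaled by library totals alone, the split was 12 higher and 5 lower, with the median of all genes at -0.41, and limma on log2(TPM + 1) gave 10 higher and 2 lower. These were 34.7% and 24.5% of the members, beside 28.1% and 18.9% of all genes in the same fits. With the DMSO library that held most ribosomal RNA left out in both states, 13 members passed (26.5%, beside 10.8% of all genes), all higher. Groups did not overlap for 38 of the 49 members, against 63.4% of all tested genes.

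The start-codon factors were among the strongest. Eif1, which guards the choice of start codon, had 5583 and 4203 CPM in stimulated and 1650.2 and 1479 CPM in unstimulated DMSO libraries, a log2 fold change of 1.65 (SE 0.25, edgeR adjusted p = 0.00052). Eif1a, one of 2 genes for eIF1A, had 248 and 229 CPM against 75.6 and 61.3 CPM (log2 fold change 1.80, SE 0.18, edgeR adjusted p = 2.41e-05), and its X-linked copy Eif1ax rose by 1.48. Both libraries of the stimulated group stood above both of the other for each of these genes. Eif1b, a close relative of Eif1, was also higher, by 1.02, and Eif1ad, which carries an eIF1A domain, did not pass (0.51, edgeR adjusted p = 0.0558).

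Among the carriers of initiator tRNA, the genes of the beta and alpha subunits of eIF2 rose together. Eif2s2 had 448 and 392 CPM in stimulated and 138 and 116 CPM in unstimulated DMSO libraries (log2 fold change 1.72, SE 0.21, edgeR adjusted p = 9.65e-05). Eif2s1 had 378 and 333 CPM against 159 and 144 CPM (1.23, SE 0.19), while the gamma subunit gene Eif2s3x, at 0.49, did not pass. Eif2d, whose product handles tRNA on ribosomes outside the eIF2 route, was one of the 2 members that fell, with 6.11 and 5.94 CPM against 11.4 and 11.4 CPM (-0.92, SE 0.23). None of the 5 eIF2B genes passed in DMSO, and their log2 fold changes ran from -0.62 for Eif2b2 to 0.72 for Eif2b3.

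On the cap-binding side, close relatives had different values. Eif4e had 304 and 330.3 CPM in stimulated and 131 and 107 CPM in unstimulated DMSO libraries (log2 fold change 1.41, SE 0.18, edgeR adjusted p = 0.000148). Eif4a1 had 2924 and 2671 CPM against 1067 and 807 CPM (1.58, SE 0.23, edgeR adjusted p = 0.0004), whereas its close copy Eif4a2 was at -0.08. Eif4e3, an atypical member of the cap-binding family, fell, with 4.18 and 3.66 CPM against 7.63 and 6.65 CPM (-0.86, SE 0.25, edgeR adjusted p = 0.0238). Eif4g2, a scaffold that lacks the eIF4E binding site, rose by 1.23, and Eif4ebp1, a repressor of eIF4E under mTOR control, by 0.96.

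Of the later factors, Eif5a, whose product carries hypusine and eases peptide bond formation, had 1970.5 and 1381 CPM in stimulated and 705 and 454 CPM in unstimulated DMSO libraries (log2 fold change 1.53, SE 0.29). Eif5b, the subunit-joining GTPase, rose by 1.09. The eIF5A paralog gene Eif5a2, at -0.55, did not pass. Eif5, the activator of GTP hydrolysis on eIF2, stood at 1082 and 1010.3 CPM against 871 and 718 CPM and did not pass either (0.40, edgeR adjusted p = 0.206). The 10 members Eif1, Eif1a, Eif1ax, Eif2s1, Eif2s2, Eif3j1, Eif3j2, Eif4a1, Eif4e and Eif5a passed under all 22 alternatives run for them. Eif4e2, Eif4e3, Eif4ebp1, Eif3d, Eif3g, Eif4g2, Eif2d and Eif5b lost the call when the ribosomal RNA-rich DMSO libraries were left out. Apart from Eif5b, they also lost it without unstimulated DMSO library 2 alone, and, apart from Eif5b and Eif3g, without unstimulated DMSO library 1 alone. Without stimulated DMSO library 1 the calls of Eif3d, Eif3g, Eif4e2, Eif4e3, Eif4ebp1 and Eif4g2 were lost, and without stimulated DMSO library 2 those of Eif2d, Eif4e2 and Eif4e3.

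**Figure D1:**
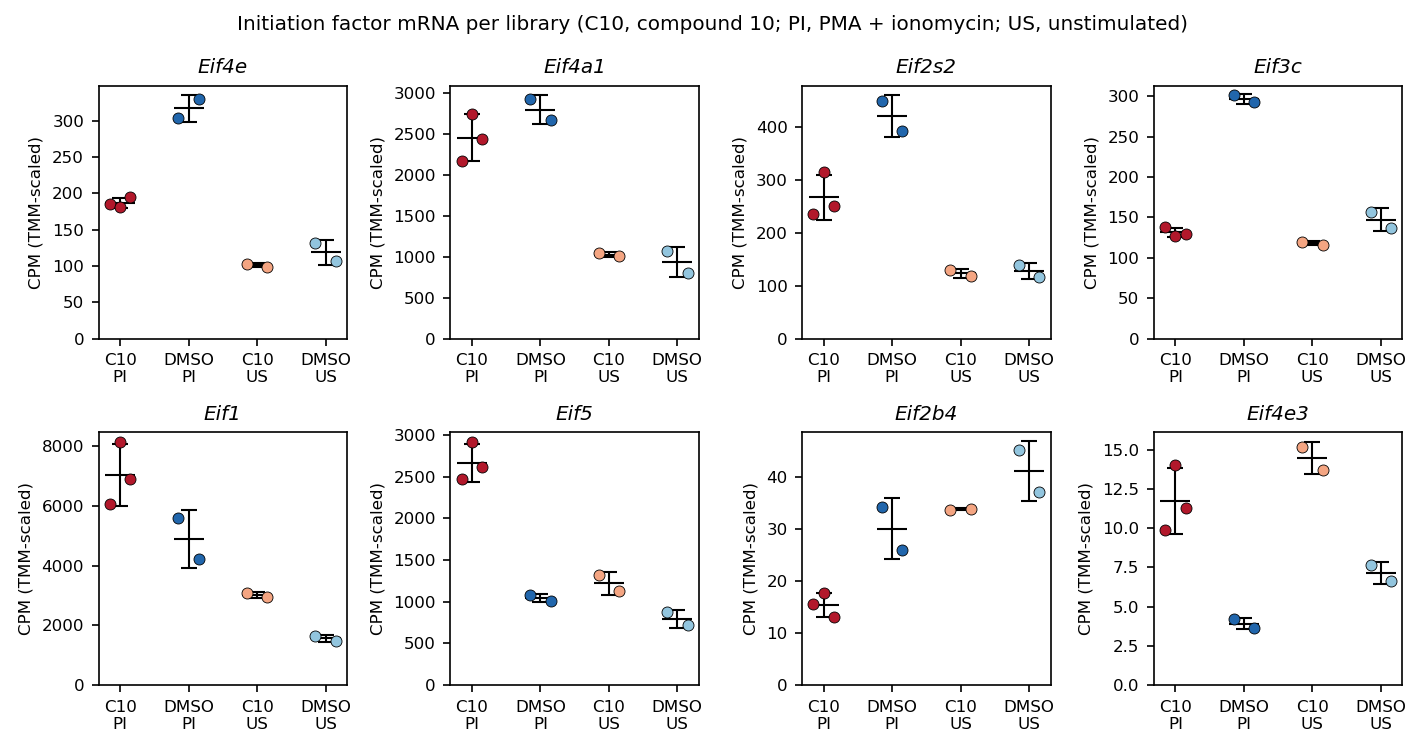
TMM-scaled CPM of 8 initiation factor genes in each library, by group (C10, Compound 10; PI, PMA and ionomycin; US, unstimulated). Points are libraries, and bars show the mean and SD of 3 stimulated Compound 10 libraries or of 2 libraries in each other group. For Eif3c the stimulated Compound 10 libraries, at 127 to 138 CPM, lie near the unstimulated ones and below both stimulated DMSO libraries, while for Eif5 they lie above all others.

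Many initiation factor mRNAs were lower in stimulated cells that had received Compound 10. Of the 49 members, 18 were lower and 2 higher with Compound 10 than with DMSO, where 23.1% of all tested genes passed (11.4% lower, 11.7% higher). The median log2 fold change was -0.43 over the members and 0.00 over all tested genes. Groups did not overlap for 31 of the 49 members, against 47.3% of all tested genes. Without stimulated DMSO library 1, 8 members passed: Eif1a, Eif1ad, Eif1b, Eif3b, Eif3c and Eif4e lower, Eif5 and Eif4e3 higher. These are 16.3% of the members, close to the 14.5% of all genes that passed in that fit. Scaling by library totals alone also left 6 lower and 2 higher, and there the share of all genes was the same 16.3%. By limma on log2(TPM + 1), 5 members passed, which is 10.2%, beside 8.53% of all genes. In these 3 fits the share of members that passed was thus near that of genes at large. Without the DMSO libraries richest in ribosomal RNA it was 34.7%, beside 12.4%. This comparison shares the stimulated DMSO libraries with the one above, so a gene high in those libraries counts in both.

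Eif3c, a core subunit of the eIF3 scaffold, had the smallest p of all members. Its level was 138, 127 and 129 CPM in stimulated Compound 10 libraries and 302 and 293 CPM in stimulated DMSO libraries. The log2 fold change was -1.18 (SE 0.15, edgeR adjusted p = 0.000305), and the groups lay far apart. Eif3b, another core subunit, had 106, 131 and 97.2 CPM against 247 and 196 CPM (-0.99, SE 0.18, edgeR adjusted p = 0.00239). Eif3g (-0.76), Eif3l (-0.75) and Eif3d (-0.71) were the remaining eIF3 genes that fell.

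The other 9 of the 14 eIF3 genes did not pass, and several lay close to 0. Eif3e had 301, 231 and 345 CPM in stimulated Compound 10 libraries and 268 and 319 CPM in stimulated DMSO libraries, so its groups overlapped (log2 fold change -0.01, SE 0.22). Eif3f, Eif3h, Eif3i, Eif3k and Eif3m were, like Eif3e, lowest in stimulated Compound 10 library 2, as with 337 CPM for Eif3h beside 521 and 561 CPM. Eif3a, Eif3j1 and Eif3j2 were lowest in library 1. The log2 fold changes of Eif3f, Eif3i, Eif3h and Eif3k were 0.10, 0.08, 0.21 and 0.34, and those of Eif3a, Eif3m, Eif3j1 and Eif3j2 were -0.26, -0.35, -0.38 and -0.25. With stimulation in DMSO, Eif3e, Eif3i and Eif3k were at 0.14, 0.08 and -0.01, and Eif3f at -0.36. The 5 genes Eif3e, Eif3f, Eif3h, Eif3i and Eif3k averaged 141 to 313 TPM in stimulated DMSO libraries, and the 5 that fell with the compound 67.5 to 160 TPM. Eif3m, Eif3j2, Eif3a and Eif3j1, which did not pass either, averaged 198, 101, 23 and 19.6 TPM there. The genes that did not pass thus lay both above and below those that fell. The loosely bound subunit eIF3j is encoded by Eif3j1 and Eif3j2, whose levels rose by 1.65 and 1.69 with stimulation in DMSO, more than any other eIF3 gene in log2 fold change.

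**Figure D2:**
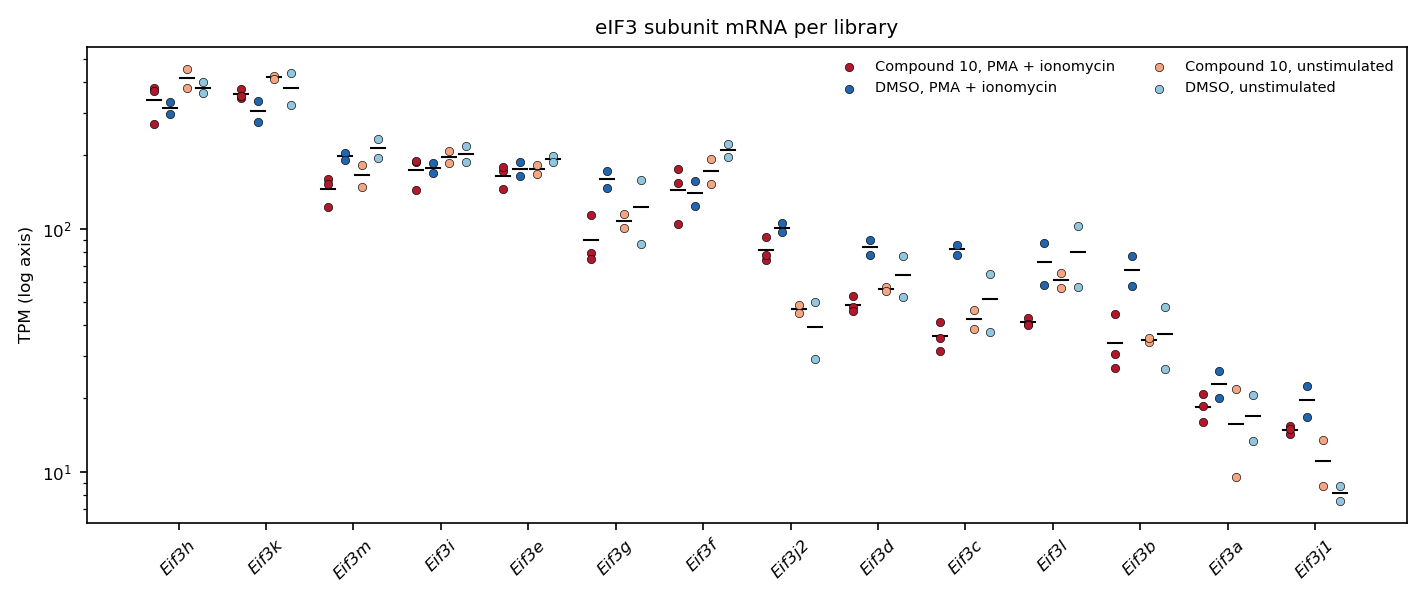
TPM of the 14 eIF3 subunit genes in each library, on a log axis and ordered by their mean in stimulated DMSO libraries. Points are libraries and lines are group means. Eif3c averaged 36.0 TPM in stimulated Compound 10 and 82.0 TPM in stimulated DMSO libraries, while Eif3e averaged 165 and 176 TPM.

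All 5 eIF2B genes had negative values with Compound 10 in stimulated cells, and 4 of them passed. Eif2b4, the delta subunit gene, had 15.7, 17.7 and 13.1 CPM in stimulated Compound 10 libraries and 34.3 and 26 CPM in stimulated DMSO libraries (log2 fold change -0.96, SE 0.19, edgeR adjusted p = 0.004). Eif2b3 (gamma, -0.94), Eif2b1 (alpha, -0.66) and Eif2b2 (beta, -0.60) also fell, and Eif2b5, the catalytic epsilon subunit, was at -0.52 (edgeR adjusted p = 0.0739). All 4 calls were lost without stimulated DMSO library 1, as given above, and the log2 fold changes kept their sign under every alternative. Of the genes of eIF2, the substrate of this complex, Eif2s2 fell by 0.65, and Eif2s1 (-0.26) and Eif2s3x (-0.45) did not pass. Eif2a (-0.43) and Eif2d (0.40), which act in other ways of delivering tRNA, did not pass either.

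Among the start-codon factors, 3 of 5 genes were lower. Eif1b had 30.8, 32.8 and 35.5 CPM in stimulated Compound 10 libraries and 79.9 and 61 CPM in stimulated DMSO libraries (log2 fold change -1.09, SE 0.17, edgeR adjusted p = 0.000742). Eif1 had 6061, 8119 and 6908 CPM against 5583 and 4203 CPM (0.52, SE 0.23, edgeR adjusted p = 0.126), so every Compound 10 library was above both DMSO libraries without passing. Eif1a fell by 0.87 and Eif1ad by 1.04, while Eif1ax, at 162, 177 and 182 CPM against 185 and 179 CPM, was at -0.07. Reads of such copies can be split between them by the authors' transcript assignment, and for the sum of Eif1a and Eif1ax the log2 fold change was -0.47 (edgeR adjusted p = 0.0571).

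Eif4e fell and its relative Eif4e3 rose. Eif4e had 185, 181 and 195 CPM in stimulated Compound 10 libraries and 304 and 330.3 CPM in stimulated DMSO libraries (log2 fold change -0.76, SE 0.16, edgeR adjusted p = 0.00518). Eif4e3 had 9.86, 14 and 11.3 CPM against 4.18 and 3.66 CPM (1.58, SE 0.24, edgeR adjusted p = 0.000668), with no overlap between groups. Eif4a1, Eif4a2, Eif4b and all 3 eIF4G genes did not pass (-0.19, -0.21, 0.16, and -0.44 to 0.20), nor did the cap-binding relatives Eif4e2 (-0.10) and Eif4e1b (-0.76), whereas the cofactor gene Eif4h (-0.67) and Eif4a3 (-0.56), a core of the exon junction complex rather than a cap factor, fell. The repressor genes Eif4ebp1 (-0.76, edgeR adjusted p = 0.059), Eif4ebp2 (0.53) and Eif4enif1 (-0.39) did not pass.

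Eif5 was the most abundant member that rose. It had 2475, 2919 and 2612 CPM in stimulated Compound 10 libraries and 1082 and 1010.3 CPM in stimulated DMSO libraries, and every Compound 10 library stood above both DMSO libraries. The log2 fold change was 1.35 (SE 0.21, edgeR adjusted p = 0.000761). Eif6, which keeps the large subunit apart until it is needed, fell by 0.74 and Eif5b by 0.58, and Eif5a (-0.52) and Eif5a2 (0.40) did not pass. Eif3c, Eif1b, Eif1ad, Eif5 and Eif4e3 passed under all 22 alternatives of scaling, filter, test, transcripts and libraries, although Eif1b summed with its far more abundant relative Eif1 did not (0.51, edgeR adjusted p = 0.137). By contrast, Eif5b passed under 7, Eif2b2 and Eif4a3 under 10, Eif2b1 under 13 and Eif2s2 under 14. Single libraries other than stimulated DMSO library 1 also decided some calls: Eif2b1, Eif2b3 and Eif5b were lost without stimulated DMSO library 2, and Eif2b1 without stimulated Compound 10 library 2. Eif2b2, Eif2s2, Eif4a3 and Eif5b were lost without stimulated Compound 10 library 1 or 3, and Eif2b1 and Eif4h without library 3.

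**Figure D3:**
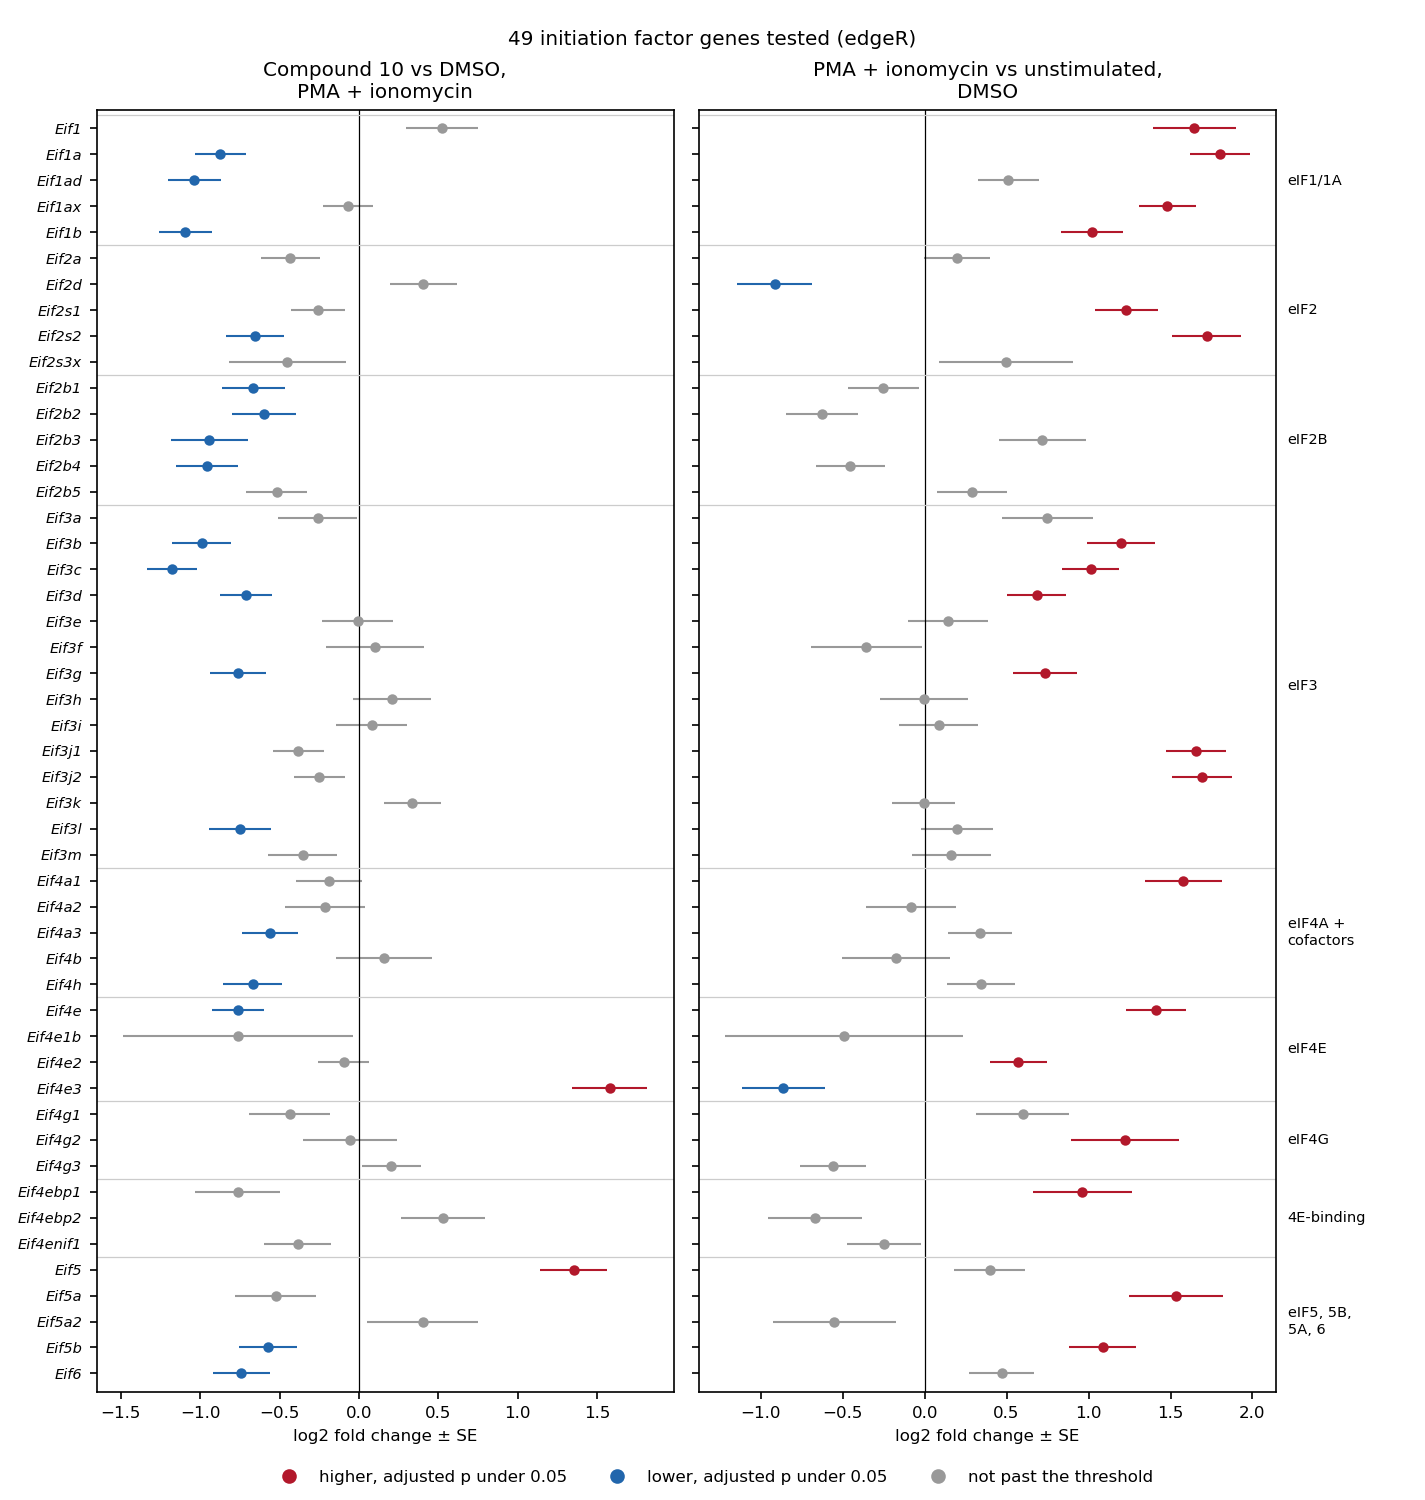
Log2 fold changes with SE of the 49 tested initiation factor genes, grouped by role, for Compound 10 against DMSO in stimulated cells (left) and for stimulation in DMSO (right). Colours mark the edgeR calls. On the left 18 members are lower and 2 higher, and on the right 19 are higher and 2 lower; both panels use the stimulated DMSO libraries, which enter them with opposite signs.

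Without stimulation the compound changed little that could be called. Eif4e3 and Eif1 were higher in unstimulated Compound 10 than in unstimulated DMSO libraries and no member was lower, where 7.36% of all tested genes passed (4.45% higher, 2.91% lower). Eif4e3 had 15.2 and 13.7 CPM against 7.63 and 6.65 CPM (log2 fold change 1.02, SE 0.24, edgeR adjusted p = 0.0278), and Eif1 had 3082 and 2930.0 CPM against 1650.2 and 1479 CPM (0.94, SE 0.25, edgeR adjusted p = 0.0411). For both genes both Compound 10 libraries stood above both DMSO libraries. Neither passed when any 1 of the 4 unstimulated libraries was left out. At an unadjusted p under 0.05 there were 7 members, among them Eif5 (0.62, edgeR adjusted p = 0.109). The share of all tested genes at that cut was not counted. The median over the members was -0.16, against -0.01 over all tested genes. The 2 members are 4.08% of those tested, below the share of all genes. Groups did not overlap for 33 of the 49, against 55.5% of all tested genes.

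Under Compound 10, stimulation still raised part of the machinery. Of the 49 members, 11 were higher and 3 lower in stimulated than in unstimulated Compound 10 libraries, where 21.8% of all tested genes passed (11% higher, 10.8% lower). The median was 0.17 over the members and 0.00 over all tested genes. Library totals alone turned the split to 4 higher and 6 lower, with the median of all genes at -0.46, and limma on log2(TPM + 1) gave 1 higher and 2 lower. These were 20.4% and 6.12% of the members, below the 26.8% and 16.7% of all genes in the same fits. Groups did not overlap for 24 of the 49 members, against 49.6% of all tested genes.

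Of the 11 higher members, 10 were also higher with stimulation in DMSO, which is 90.9% of these 11 and 52.6% of the 19 there, and the 2 comparisons share no library. Eif1a had 134, 121 and 135 CPM in stimulated and 47.1 and 50.3 CPM in unstimulated Compound 10 libraries (log2 fold change 1.42, SE 0.17, edgeR adjusted p = 0.000116). Eif4a1 rose by 1.26, Eif1 by 1.23, Eif3j2 by 1.18, Eif2s2 by 1.11, Eif1ax and Eif5a by 0.96 each, Eif3j1 by 0.92, and Eif4e and Eif2s1 by 0.89 each. Across the 49 members the log2 fold changes of the 2 stimulation comparisons had a Pearson r of 0.72 and a Spearman rho of 0.71, as a description over genes that are not independent.

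The eleventh was Eif5, with 2475, 2919 and 2612 CPM in stimulated and 1319.6 and 1125 CPM in unstimulated Compound 10 libraries (log2 fold change 1.13, SE 0.21, edgeR adjusted p = 0.00213). The 3 members that fell all belong to eIF2B. The stimulated Compound 10 libraries also enter the comparison with stimulated DMSO, with the same sign, so a gene high or low in them counts in both. Eif2b4 had 15.7, 17.7 and 13.1 CPM against 33.7 and 34 CPM (-1.12, SE 0.19, edgeR adjusted p = 0.00143), Eif2b1 had 25.6, 16.4 and 19.7 CPM against 43.4 and 42.5 CPM (-1.06, SE 0.20, edgeR adjusted p = 0.00228), and Eif2b2 was at -0.77 (edgeR adjusted p = 0.0165). Without either unstimulated Compound 10 library Eif2b2 and Eif5a lost their calls, as did Eif2b2 without stimulated Compound 10 library 3 and Eif2s1 without unstimulated Compound 10 library 2. Eif3c (0.15), Eif3b (0.28), Eif1b (0.18) and Eif5b (0.14), which rose with stimulation in DMSO, did not pass here.

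**Figure D4:**
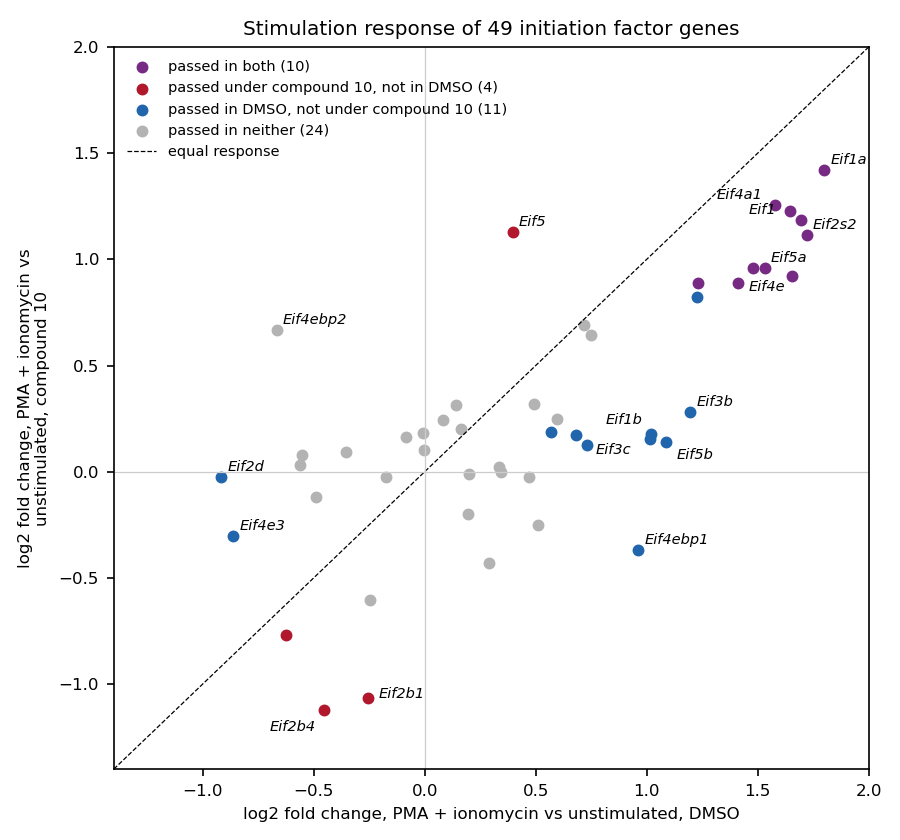
Log2 fold change of each of the 49 members with stimulation under Compound 10 (vertical axis) against that in DMSO (horizontal axis). Colours give which comparison a member passed in, and the dashed line marks equal responses. The 10 members that passed in both lie at the upper right, below the line; Eif5 lies above it, and Eif2b1, Eif2b2 and Eif2b4 at the lower left.

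A difference in the stimulation response between Compound 10 and DMSO could not be called for any member. No member passed the interaction test of edgeR (1.03% of all tested genes did, 0.421% higher and 0.607% lower). An unadjusted p under 0.05 was found for 16, and the share of all tested genes at that cut was not counted. The DESeq2 Wald test called 3 (6.12%, beside 3.24% of all genes). The smallest adjusted p was that of Eif3c, whose response was lower by 0.86 on the log2 scale with an SE of 0.23 (edgeR adjusted p = 0.106). Calls in one stimulation comparison and not in the other are thus not shown to differ. The compound's differences had opposite signs in stimulated and unstimulated cells for 18 of the 49 members, against 32.3% of all tested genes. For 7 of the 49 members (Eif2b1, Eif2b5, Eif2d, Eif3j1, Eif3j2, Eif4ebp1 and Eif5b) the signs were opposite and the groups did not overlap in either state. Both held together for 4.28% of all tested genes. Eif2d, for example, had 7.85, 7.95 and 8.12 CPM in stimulated Compound 10 and 6.11 and 5.94 CPM in stimulated DMSO libraries, but 7.47 and 8.74 CPM in unstimulated Compound 10 and 11.4 and 11.4 CPM in unstimulated DMSO libraries (interaction 0.89, SE 0.31, edgeR adjusted p = 0.195).

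The tables list transcripts, so the balance between protein_coding and other transcripts of a gene could be followed for 19 members. None changed in any of the 5 comparisons by limma on the log2 ratio of the 2 kinds, where few of 3858 genes did. The share of genes that passed was 0.0518% for Compound 10 in stimulated and 0.0778% in unstimulated cells, 0.415% for stimulation in DMSO, 0% under Compound 10 and 0.0259% for the interaction. At an unadjusted p under 0.05 there was 1 member for Compound 10 after stimulation and 3 without it. There were 2 with stimulation in DMSO, 2 with stimulation under Compound 10 and 0 for the interaction. The share of all genes at that cut was not counted. Eif4a1 was among them for the compound in both states. The share of its counts on other transcripts was 4.62%, 4.42% and 4.32% in stimulated Compound 10 and 2.03% and 2.45% in stimulated DMSO libraries. It was 4.68% and 4.26% in unstimulated Compound 10 and 1.77% and 2.83% in unstimulated DMSO libraries. The log2 ratio was higher by 1.03 in each state (limma adjusted p = 0.257 and 0.322), and the Compound 10 libraries were above the DMSO libraries of their state without exception. Eif5b and Eif2a had most of their counts on transcripts not typed protein_coding (71.4% to 82.5% and 56.8% to 87.8%). By the authors' transcript assignment, their gene levels are thus largely levels of retained-intron or decay-marked forms, and whether these forms were present was not tested.

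Other genes of translation control gave a mixed picture. Of 47 listed genes, 44 were tested, and with Compound 10 in stimulated cells 7 were lower and 5 higher, which is 27.3% of the list and near the 23.1% of all tested genes. Eif2ak1, a kinase that silences eIF2, had 15.9, 11.8 and 13.7 CPM in stimulated Compound 10 and 42.4 and 40.9 CPM in stimulated DMSO libraries (log2 fold change -1.60, SE 0.18, edgeR adjusted p = 0.000143). Abce1, which recycles ribosomes, fell by 1.52, Ddx3x, a helicase that helps scanning on structured leaders, by 1.14, and Bzw1, an eIF5 mimic, by 0.82. Impact, an inhibitor of the kinase Gcn2, rose, with 24, 18 and 19.2 CPM against 7.52 and 7.91 CPM (1.40, SE 0.20, edgeR adjusted p = 0.000536), and so did Eefsec, the elongation factor for selenocysteine (1.97).

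In unstimulated cells, Impact (1.53) and Paip2b (1.01), an inhibitor of poly(A)-binding protein, were the 2 listed genes that rose with the compound, and none fell (4.55%, beside 7.36% of all genes). Stimulation in DMSO raised 12 of the 44 and lowered 3 (34.1% in all, beside 28.1% of all genes), led by Eef1e1 (2.18), an auxiliary protein of tRNA synthetases, Bzw1 (1.84), Ddx3x (2.46), the release factor gene Etf1 (1.73) and Ppp1r15a (1.65), which directs the phosphatase to eIF2. Under Compound 10 it raised 7 and lowered 3 (22.7%, near the 21.8% of all genes), with Bzw1 at 1.63, Eef1e1 at 1.51, Etf1 at 1.33 and Ddx3x at 1.59 among those that rose. Eif2ak1 (-1.58) and Akt1s1 (-1.99), which encodes an mTOR complex subunit, fell.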

How the data were processed

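Qiagen reagents served for the RNA and Clontech SMART-seq chemistry for the libraries, per the labels' protocols. The submitters' processing notes name cutadapt, kallisto and mm10, without versions. Each deposited table lists estimated counts, TPM and the effective length of 109617 transcripts, per the file headers. Transcript IDs were matched to GENCODE M21 without their version number (108214 matched, 63964 with the same version), since no annotation version is given in the sources used here. For genes, the authors' estimated counts were summed per gene and rounded to whole numbers.

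Genes were filtered with filterByExpr by group, which left 14011, scaled by TMM and fitted over all 9 libraries with edgeR 4.0.16 (R 4.3.3) by glmQLFit with robust dispersion and glmQLFTest. P-values are two-sided and adjusted by Benjamini-Hochberg over all 14011 genes, with a threshold of 0.05. SEs were obtained from F, as the size of the log2 fold change over the root of F. CPM values are TMM-scaled, and deposited TPM summed per gene served for levels between genes. Log2 ratios of other to protein_coding transcript counts, with a pseudocount of 0.5 and a mean count of at least 10 on each side, were tested with limma 3.58.1. DESeq2 1.42.0 and limma on log2(TPM + 1) were alternatives, the second of which understates changes of low genes. Scripts ran in R and in python 3.11.15 and were checked on simulated data. The members and the lists were chosen with earlier results of these data known. Members were named if they passed in a comparison, had the smallest p of their role or belong to a pair of close copies, and at most 6 other translation genes were named per comparison. Strand is not stated in the labels, so reads of genes that overlap on opposite strands cannot be told apart.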

Additional observations from a re-analysis of the deposited data

How the results depend on the processing

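Of 1272 alternative values for 57 results on single members, 1094 kept their direction and their side of the threshold, 177 kept the direction without passing, and 1 reversed: summed with Eif1, Eif1b stood at 0.51 with Compound 10 in stimulated cells, an alternative chosen after seeing the data, in which Eif1 supplies nearly all counts. The count of members that passed for Compound 10 in stimulated cells was 8 by library totals alone, 5 by limma on log2(TPM + 1), and 8 to 23 with 1 library left out. For Compound 10 in unstimulated cells it was 1 by library totals, 0 by limma on log2(TPM + 1), 0 without the pair of DMSO libraries that held most ribosomal RNA, and 0 to 3 with 1 library left out. With stimulation in DMSO it was 12 by limma on log2(TPM + 1), 13 without the libraries rich in ribosomal RNA, and 15 to 25 with 1 library left out, and with stimulation under Compound 10 it was 3 by limma on log2(TPM + 1) and 12 to 16. The interaction gave 1 member with no filter, 3 by the DESeq2 Wald test and 0 to 3 with 1 library left out. Of these, 3 came without stimulated Compound 10 library 2 (6.12%, beside 1.91% of all genes). The highest counts of the other ranges came from the same fit. They were 46.9% of members (beside 22.9% of all genes) for Compound 10 in stimulated and 6.12% (beside 10.5%) in unstimulated cells. With stimulation they were 51% (beside 31.5%) in DMSO and 32.7% (beside 22.1%) under Compound 10. The lowest count for Compound 10 in stimulated cells was near the share of all genes, as given above. The balance of transcript kinds for Compound 10 in unstimulated cells gave 0 to 1 members with 1 library left out, the 1 being Eif1ax without unstimulated DMSO library 1. The cause of these shifts was not tested. Replicate numbers are only shared between groups: deviations of same-numbered libraries correlated at -0.10 to 0.33. With the replicate block, 15 members passed for Compound 10 after stimulation (30.6%, beside 19.1% of all genes) and 0 without it (beside 6.27%). There were 22 with stimulation in DMSO (44.9%, beside 27.6%), 14 under Compound 10 (28.6%, beside 17%) and 0 for the interaction (beside 0.307%). A fit on the compared groups alone was not run for the interaction, which needs all 4. With 2 or 3 libraries a group and a median SE of 0.198 (log2) over members for Compound 10 in stimulated cells, small changes could not be called. Where 1 library is left of a pair, it is assumed to vary like the other groups.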

Other observations

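Eif2b2, the beta subunit gene of eIF2B, had the share of its counts on transcripts not typed protein_coding ordered by group. It was picked from the 19 members followed in this way after looking at the values. The share was 19.7%, 20.3% and 15.2% in stimulated Compound 10 and 12.5% and 11.6% in stimulated DMSO libraries. It was 9.82% and 11.1% in unstimulated Compound 10 and 4.18% and 4.28% in unstimulated DMSO libraries. The log2 ratio of the 2 kinds was higher by 1.62 with stimulation in DMSO (limma adjusted p = 0.103) and by 1.39 with Compound 10 in unstimulated cells (limma adjusted p = 0.297). It was higher by 0.71 with Compound 10 in stimulated cells (limma adjusted p = 0.451) and by 0.95 with stimulation under Compound 10 (limma adjusted p = 0.36). None of these passed.

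Several members, such as Eif4g2 and Eif2s3x, had lower values in library 2 of both Compound 10 groups than in the rest of its group, as seen after looking at the values. Eif4g2 had 1227 CPM in stimulated Compound 10 library 2 and 2562 and 2411 CPM in libraries 1 and 3, and 941 CPM in unstimulated library 2 and 1398 CPM in library 1. Eif2s3x had 55.8 CPM in stimulated Compound 10 library 2 and 135 and 131 CPM in the others, and 64.6 CPM in unstimulated library 2 and 108 CPM in library 1. Eif3e, Eif3f, Eif3h, Eif3i, Eif3m, Eif4a2 and Eif4b, among others, were likewise lower in library 2 of both groups. Eif4g1 went the other way, with 61.8 CPM in stimulated library 2 beside 47 and 54 CPM, and 60.9 CPM in unstimulated library 2 beside 30.6 CPM. Over the 49 tested members, library 2 was the lowest of the 3 stimulated Compound 10 libraries for 21 (42.9%, against 38% of all tested genes). It was the highest for 17 members, and for 5336 of all 14011 tested genes. How many of all tested genes were lower in library 2 of both groups was not counted.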
